A study of Ficus obtusifolia with 4 samples.

Results

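The assembled transcripts described as chalcone synthase and at least 200 bp long were followed through flowers of the fig Ficus obtusifolia. They were found by the words "chalcone synthase" in the description of each transcript and by its length, and numbered 10 of the 54550 transcripts in the table. A further 50 transcripts with the same words were shorter than 200 bp and are used here only for comparison. RNA came from 4 pools of flowers of 1 tree: pollinated gall flowers, pollinated seed flowers, receptive gall flowers and receptive seed flowers. Gall flowers were those lying towards the lumen of the syconium (the closed inflorescence) and seed flowers those lying towards its wall, so the names stand for position. All syconia had been bagged to keep wasps out, and receptive syconia had met no wasp. Pollinated syconia were taken 24 hours after 1 female of the pollinating wasp Pegoscapus hoffmeyerii had been let in and the bag closed again. Each flower type was sequenced as 1 library of flowers pooled over a few syconia, so no spread between samples is known, and every ratio below compares 2 libraries. In such pools, fewer cells of a type and less RNA per cell cannot be told apart.

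Chalcone synthase is the plant enzyme that opens the flavonoid pathway. It joins p-coumaroyl-CoA, made from phenylalanine, with malonyl-CoA to give naringenin chalcone, which chalcone isomerase then closes to the flavanone naringenin. Flavonols, anthocyanins and condensed tannins, known in flowers as pigments, sunscreens and defence compounds, derive from it. Plants often carry several chalcone synthase genes, and related enzymes of the same family act in the anther, where they help to build the pollen wall.

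The libraries held 58969477 mapped reads in pollinated gall, 22141107 in pollinated seed, 51063005 in receptive gall flowers and 11584069 in receptive seed flowers. The 9 transcripts described with names of floral organ identity genes, such as agamous or sepallata, had reads in all 4 libraries. The 490 transcripts described with the name of a hymenopteran genus trace the wasp. They took 0.0767% of the reads in pollinated gall flowers and at most 1.04e-04% in each of the other libraries. The paper assigned many more transcripts of pollinated gall flowers to Hymenoptera, so this share is only a part of the wasp reads. Levels are given as RPKM (reads per kilobase of transcript and 1000000 mapped reads). Median-ratio scaling factors, taken from the 5673 transcripts with more than 20 RPKM in every library, differed between gall and seed flowers by -0.22 (log2) at the receptive and -0.13 at the pollinated stage, and ratios below are not scaled by them.

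Of the 10 transcripts, 8 are described as chalcone synthase and 2, Locus 15937 and Locus 22790, as chalcone synthase family protein. All 10 carry the terms acyltransferase activity and naringenin-chalcone synthase activity, and 8 carry flavonoid biosynthetic process. In its place Locus 15937 carries pollen exine formation and Locus 22790 the broad term biosynthetic process. Lengths ran from 234 bp (Locus 42519) to 1817 bp (Locus 1491), and the mean similarity of the protein hits from 84.9% (Locus 15937) to 99.55% (Locus 24923). The 5 longest had the 5 lowest e-values, from 0 as listed (Locus 16051) to 8.3e-105 (Locus 604), and the shortest, Locus 42519, had the highest, 1.29e-10. Between them, Locus 19117 (542 bp) had 2.15e-84 and the longer Locus 7415 (910 bp) 3.16e-20. Locus 1491, Locus 604, Locus 7415 and Locus 42519 came from loci with 10, 11, 7 and 10 assembled sequences, of which 1 was kept. Their assembly confidence was listed as 0.292, 0.391, 0.242 and 0.357, against 1 for the other members. At the length limit, Locus 42519 lies just inside, and Locus 26800 and Locus 31616, both of 166 bp, lie just outside. Locus 26800 had 1558 RPKM in pollinated gall, 407 in pollinated seed, 1182 in receptive gall flowers and 637 in receptive seed flowers, and Locus 31616 had 453, 75.6, 712 and 44.7.

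Locus 1491 and Locus 604 received the most reads. Locus 1491 (1817 bp) had 120415 reads (1124 RPKM) in pollinated gall, 11185 (278 RPKM) in pollinated seed, 114404 (1233 RPKM) in receptive gall flowers and 7797 (370 RPKM) in receptive seed flowers. In both gall libraries no other transcript of the table had as many reads, while it ranked 62 in pollinated seed and 33 in receptive seed flowers. Locus 604 (1188 bp) had 62915 reads (898 RPKM) in pollinated gall, 5238 (199 RPKM) in pollinated seed, 82359 (1358 RPKM) in receptive gall flowers and 1710 (124 RPKM) in receptive seed flowers. It was the transcript with the second most reads in both gall libraries, and both gall values of these transcripts lay above both seed values.

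Locus 42519, the shortest, had the highest RPKM of the 10 in every library but receptive seed flowers. It had 24937 reads (1807 RPKM) in pollinated gall, 2380 (459 RPKM) in pollinated seed, 56872 (4760 RPKM) in receptive gall flowers and 229 (84.5 RPKM) in receptive seed flowers. No transcript of the table had a higher RPKM in receptive gall flowers, whereas in receptive seed flowers it ranked 2229 by RPKM. Locus 24923 (520 bp) showed the same order of libraries, with 9703 reads (316 RPKM) in pollinated gall, 918 (79.7 RPKM) in pollinated seed, 19770 (745 RPKM) in receptive gall flowers and 144 (23.9 RPKM) in receptive seed flowers. Locus 7415 (910 bp) was lowest in receptive seed flowers. It had 10713 reads (200 RPKM) in pollinated gall, 290 (14.4 RPKM) in pollinated seed, 11720 (252 RPKM) in receptive gall flowers and 39 (3.70 RPKM) in receptive seed flowers.

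Of the low transcripts, 3 were described as chalcone synthase. Locus 16051 had 16.0 RPKM in pollinated gall, 3.24 in pollinated seed, 23.0 in receptive gall flowers and 2.65 in receptive seed flowers. Locus 19117 had 33.6, 6.25, 47.3 and 4.62 RPKM in the same order of libraries, and Locus 31949 had 23.5, 4.95, 37.6 and 3.90 RPKM. In each of them both gall libraries lay above both seed libraries. The family proteins were lower still. Locus 15937 had 1.36 RPKM (120 reads) in pollinated gall, 2.02 (67 reads) in pollinated seed, 1.05 (80 reads) in receptive gall flowers and 0.692 (12 reads) in receptive seed flowers. Locus 22790 had 1.12 RPKM (83 reads) in pollinated gall, 2.52 (70 reads) in pollinated seed, 1.29 (83 reads) in receptive gall flowers and 5.09 (74 reads) in receptive seed flowers. Locus 22790 was the member whose seed values both lay above its gall values.

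**Figure D1:**
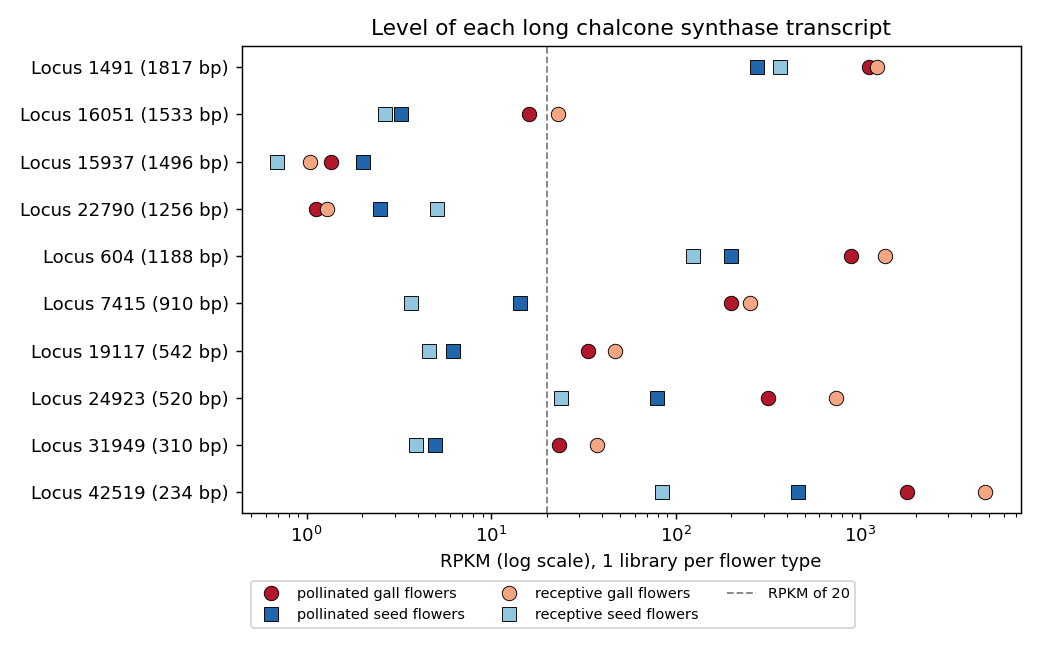
RPKM (log scale) of each of the 10 chalcone synthase transcripts of 200 bp or more, ordered by length, in the 4 libraries (circles gall, squares seed, dark pollinated, light receptive), with no error bars since each flower type has 1 library; the dashed line marks 20 RPKM. The gall circles lie right of the seed squares for the 8 transcripts described as chalcone synthase, and the family proteins, Locus 15937 and Locus 22790, stay at or below 5.09 RPKM.

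The receptive libraries ask how the 2 positions differed before any wasp had entered. The 8 transcripts described as chalcone synthase were higher in gall flowers, and Locus 1491 by the least, 3.33-fold (95% counting interval 3.25 to 3.41). Locus 604 was 10.9-fold (10.4 to 11.5) and Locus 24923 31.1-fold (26.4 to 37.0) higher. The highest ratios were those of Locus 42519, 56.3-fold (49.5 to 64.4), and Locus 7415, 68.2-fold (49.8 to 95.9). The low transcripts fell within this range, with Locus 16051 at 8.69-fold (6.51 to 11.9), Locus 31949 at 9.64-fold (5.70 to 17.7) and Locus 19117 at 10.2-fold (7.09 to 15.3). The family proteins did not share this pattern. Locus 22790 had a gall to seed ratio of 0.254 (0.184 to 0.353), and the interval of Locus 15937, with a ratio of 1.51, included 1 (0.820 to 3.05). Summed over the 10 transcripts, receptive gall flowers had 5660 reads per 1000000 and receptive seed flowers 871, a ratio of 6.49 (6.37 to 6.63). Without Locus 1491 the ratio was 17.2.

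Kal's Z-test on RPKM, the test of the study, was run over all transcripts, and a transcript was called at an adjusted p under 0.05 with more than 20 RPKM in at least 1 library. This minimum was met by 10434 transcripts of the table and by 8 of the 10 members, the family proteins being too low. Of the 8, Locus 7415, Locus 19117 and Locus 31949 met it through the gall libraries alone and Locus 16051 through receptive gall flowers alone. The test compares shares of each library's summed RPKM, whereas the ratios are of mapped reads, so a call and a ratio can differ. In the receptive comparison gall flowers had 8 members called higher and 0 called lower, against 23.6% of the 10434 transcripts called higher and 17.6% lower. By a ratio of at least 2 with the same RPKM minimum, which 18.4% of the transcripts reached upwards and 21.7% downwards, the counts were again 8 and 0. The edgeR exact test with an assumed coefficient of variation of 0.4 called 7 members higher, against 4.69% of the transcripts. The median log2 ratio was 3.31 over all 10 members and -0.14 over the 10434 transcripts. Over all transcripts the ratios of this pair differed between length classes, with medians of -0.42 (log2) at 200 to 300 bp, -0.84 at 300 to 600 bp, -0.65 at 600 to 1200 bp and -0.22 at 1200 to 2000 bp. With scaling of the libraries by TMM the summed ratio was 7.60.

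The pollinated libraries set the position that wasps prefer for their eggs against the position that is mostly only pollinated. Flowers were sorted by position alone, so the use of each flower was not known. The same 8 transcripts again had gall to seed ratios above 1, and 7 of them were called. Locus 1491 had 4.04 (3.96 to 4.12), Locus 604 had 4.51 (4.38 to 4.64), Locus 42519 had 3.93 (3.77 to 4.10) and Locus 24923 had 3.97 (3.71 to 4.25). Locus 16051, Locus 31949 and Locus 19117 had ratios of 4.93, 4.74 and 5.38. Locus 7415 stood apart with 13.9 (12.3 to 15.6). The family proteins lay on the other side, Locus 15937 at 0.672 (0.495 to 0.921) and Locus 22790 at 0.445 (0.320 to 0.621). The summed ratio was 4.27 (4.21 to 4.34), from 3931 reads per 1000000 in pollinated gall against 920 in pollinated seed flowers.

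Kal's test called 7 of the members higher in pollinated gall flowers and 0 lower, against 9.38% of the transcripts called higher and 6.69% lower. Locus 16051, with 16.0 against 3.24 RPKM, was the member above the RPKM minimum that was not called. Among the 8 above the minimum, a ratio of at least 2 was reached by 8 and of at most 0.5 by 0, against 9.01% and 5.44% of the transcripts. The edgeR exact test called 5 members higher, against 2.08% of the transcripts. The median log2 ratio was 2.09 over the 10 members and -0.12 over the 10434 transcripts. In pollinated flowers the background medians by length lay between -0.13 and -0.09.

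**Figure D2:**
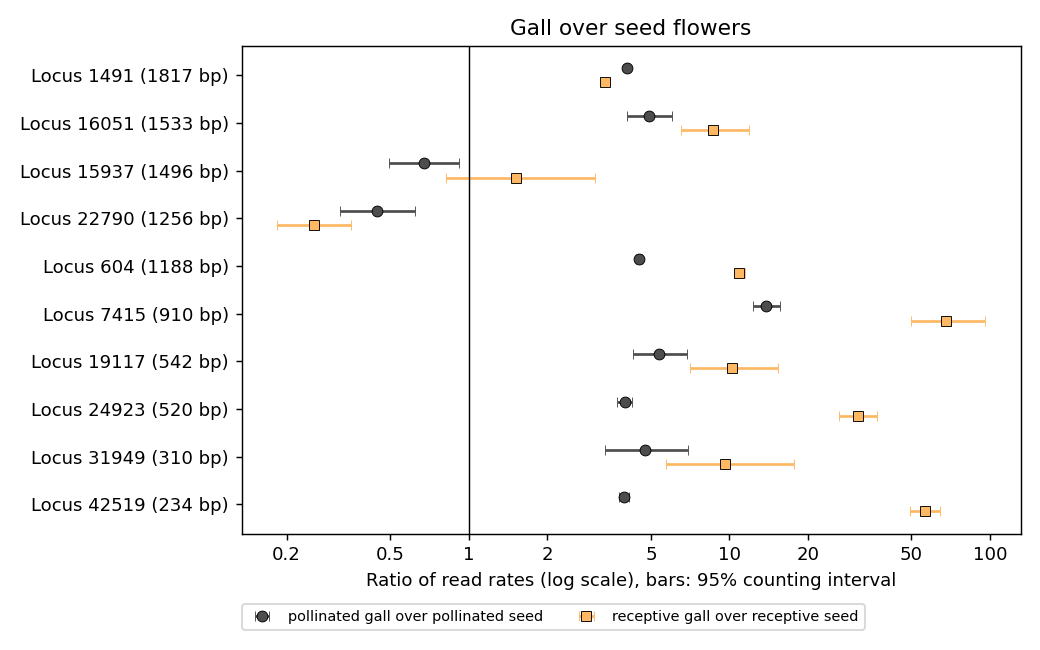
Gall over seed ratio of read rates (log scale) for each of the 10 transcripts, in pollinated flowers (dark circles) and receptive flowers (orange squares), with 95% counting intervals as bars; the vertical line marks a ratio of 1. The pollinated ratios of 7 of the 8 transcripts described as chalcone synthase lie between 3.93 and 5.38, whereas the receptive ratios of the 8 spread from 3.33 to 68.2.

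The ratio of pollinated to receptive flowers was then taken within each flower type. In gall flowers, Locus 42519 was lower after pollination, at 0.380 times its receptive value (0.374 to 0.385), as were Locus 24923 at 0.425 (0.415 to 0.435) and Locus 604 at 0.661 (0.655 to 0.668). Locus 7415 had a ratio of 0.792 and Locus 1491 of 0.911 (0.904 to 0.919), neither of them called. Locus 31949, Locus 16051 and Locus 19117, also not called, had ratios of 0.624, 0.695 and 0.712. All 8 thus had less than the receptive value, with intervals below 1, while those of the family proteins included 1. Kal's test called 3 members lower and 0 higher in pollinated than in receptive gall flowers, against 6.66% of the transcripts called lower and 8.38% higher. Among the 8 above the minimum, a ratio of at most 0.5 was reached by 2 and of at least 2 by 0, against 5.71% and 6.45% of the transcripts. A Z-test on read counts called 8 members lower and 0 higher, but also 39.9% of the transcripts lower and 44.7% higher. Pollinated gall flowers also held wasp reads, of which the share given above is only a part, and their role in these ratios was not tested.

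In seed flowers the stage change ran the other way for several of the same transcripts. Locus 42519 was higher in pollinated than in receptive seed flowers, by 5.44-fold (4.75 to 6.25), Locus 7415 by 3.89-fold (2.78 to 5.58), Locus 24923 by 3.34-fold and Locus 604 by 1.60-fold (1.52 to 1.69). Locus 1491 did not follow them, with a ratio of 0.751 (0.729 to 0.773) that was not called. For Locus 16051, Locus 19117 and Locus 31949 the intervals included 1, with ratios of 1.22, 1.35 and 1.27. Locus 15937 had a ratio of 2.92 (1.57 to 5.93), resting on 12 receptive reads, and Locus 22790 of 0.495 (0.352 to 0.696). Kal's test called 4 members higher and 0 lower, against 18.3% of the transcripts called higher and 9.77% lower. Its RPKM scale differs from that of the ratios here: the short fragment Locus 24375 was called higher at a ratio of 1.02 (0.921 to 1.13). Among the 8 above the minimum, a ratio of at least 2 was reached by 3 and of at most 0.5 by 0, against 13.2% and 10.6% of the transcripts. On read counts the Z-test called 4 higher and 1 lower, against 41.6% and 41.1% of the transcripts. The edgeR exact test called 0 members in either stage comparison. Over the table it called 1.82% higher and 0.642% lower by stage in gall flowers, and 1.33% higher and 0.623% lower in seed flowers. Over the 10 members the median log2 ratio of pollinated to receptive flowers was -0.51 in gall and 0.56 in seed flowers, against 0.03 and 0.01 over the 10434 transcripts.

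**Figure D3:**
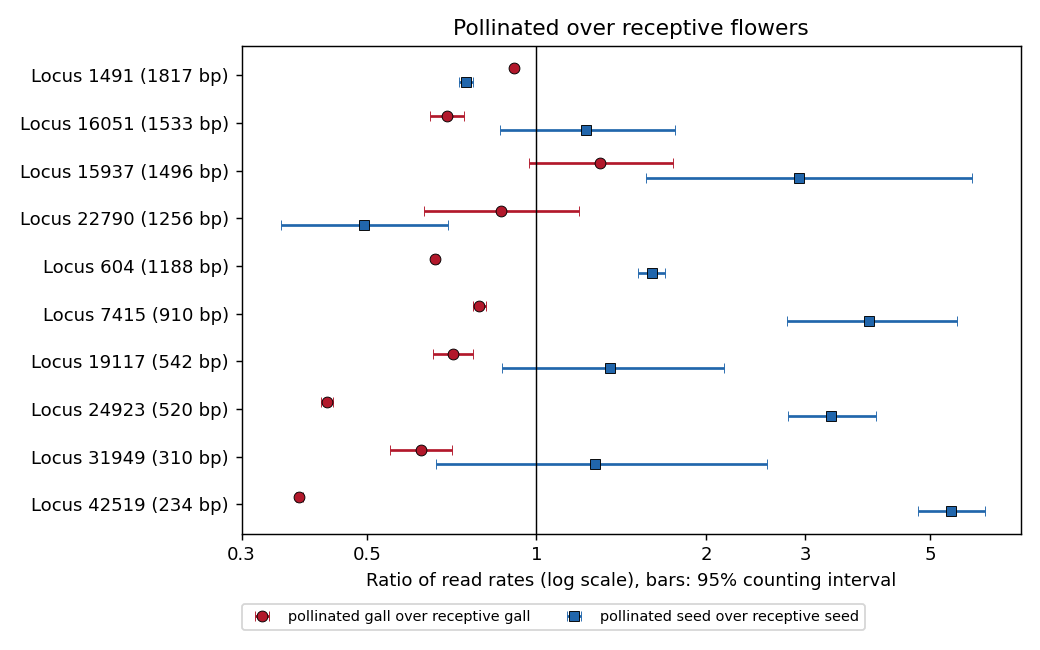
Pollinated over receptive ratio of read rates (log scale) for each of the 10 transcripts in gall flowers (red circles) and seed flowers (blue squares), with 95% counting intervals as bars; the vertical line marks a ratio of 1. Locus 42519, Locus 24923, Locus 7415 and Locus 604 lie below 1 in gall flowers and above 1 in seed flowers, and Locus 1491 lies below 1 in both.

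The gall to seed ratio thus differed between the stages, and not by the same amount for each transcript. Divided by its receptive value, the pollinated gall to seed ratio was lowest in Locus 42519, at 0.0698 (0.0609 to 0.0800). It was 0.127 (0.107 to 0.152) in Locus 24923, 0.203 (0.145 to 0.285) in Locus 7415 and 0.413 (0.390 to 0.436) in Locus 604. For Locus 1491 it was 1.21 (1.18 to 1.25), the one value above 1 among the transcripts described as chalcone synthase. These intervals hold counting error only, and a difference between stages beyond it was not tested, since each flower type has 1 library per stage.

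The makeup of the reads changed with them. Locus 1491 held 51.9% of the reads on the 10 transcripts in pollinated gall, 54.9% in pollinated seed, 39.6% in receptive gall flowers and 77.2% in receptive seed flowers. Locus 42519 held 10.8%, 11.7%, 19.7% and 2.27% in the same order. The pollinated libraries were thus closer to each other in makeup than the receptive ones. Per length, Locus 42519 had 1.61 times the RPKM of Locus 1491 in pollinated gall, 1.65 times in pollinated seed, 3.86 times in receptive gall flowers and 0.228 times in receptive seed flowers. The sum over members shows little of this, since pollinated seed flowers had 1.06 times the summed rate of receptive seed flowers (1.03 to 1.08), a factor that was 2.09 without Locus 1491 and 0.954 without Locus 42519.

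**Figure D4:**
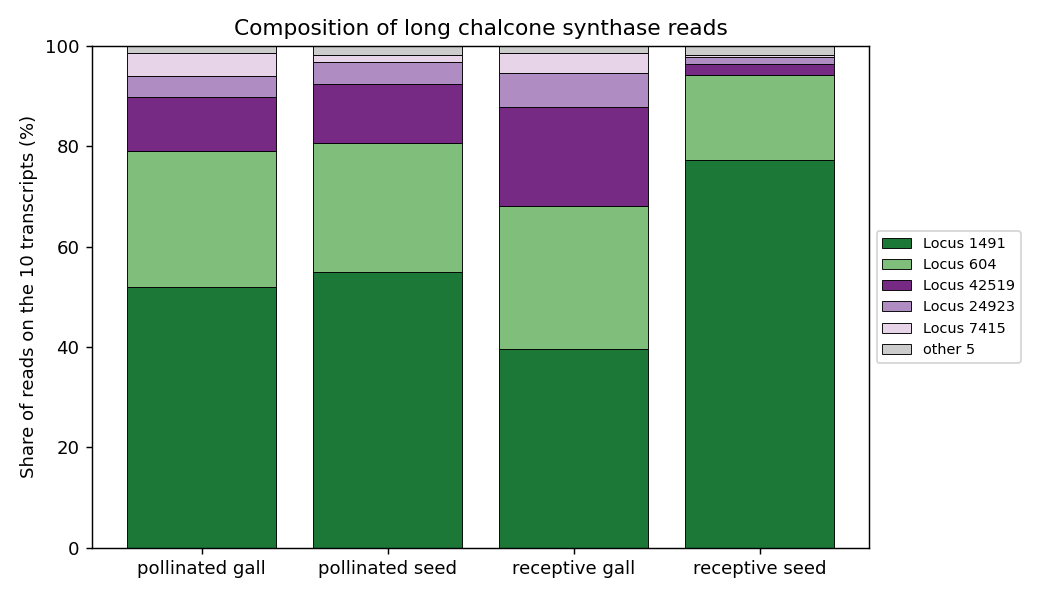
Share of the reads on the 10 chalcone synthase transcripts (percent, stacked bars) held by each of 5 transcripts and by the other 5 together, in the 4 libraries. Locus 1491 holds 51.9% in pollinated gall against 54.9% in pollinated seed flowers, while it holds 39.6% in receptive gall flowers and 77.2% in receptive seed flowers.

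Reads that also matched another transcript made up between 0.525% (receptive seed) and 2.73% (receptive gall flowers) of the reads on the 10 members. The share was largest for Locus 42519, at 11.5%, and 0 for Locus 7415, Locus 24923, Locus 31949 and the family proteins. In the 50 fragments under 200 bp, between 40.2% and 43.9% of the reads matched several transcripts. The long transcripts held 58.1% of all chalcone synthase reads in pollinated gall (exact binomial 95% interval 58.0% to 58.3%), 58.2% in pollinated seed (57.7% to 58.7%), 66.4% in receptive gall (66.2% to 66.5%) and 48.0% in receptive seed flowers (47.4% to 48.7%). By summed RPKM, which weights short transcripts more, their share was 17.8%, 18.2%, 29.0% and 8.53% in the same order.

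Of the 50 fragments, 30 passed the RPKM minimum, and how many did so through the gall libraries alone was not counted. Over the 10434 transcripts, Kal's test called 23.6% higher and 17.6% lower in receptive gall flowers, and 9.38% and 6.69% in pollinated gall flowers. Of the fragments it called 28 higher and 0 lower in gall than in seed flowers at each stage. Their summed gall to seed ratio was 3.04 (2.98 to 3.10) at the receptive stage, below the 6.49 of the long transcripts and near the 3.33 of Locus 1491, whereas at the pollinated stage it was 4.29 (4.22 to 4.36) beside 4.27. Their summed rate in pollinated flowers was 0.989 times the receptive rate in gall flowers and 0.701 times in seed flowers. The highest of them by mean RPKM was Locus 50635 (148 bp), with 3950 RPKM in pollinated gall, 1140 in pollinated seed, 3511 in receptive gall flowers and 1844 in receptive seed flowers, and 54.0% of its reads also matched another transcript. Locus 49990 (136 bp) and Locus 24375 (129 bp) followed with means of 1333 and 1318 RPKM.

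A difference common to both stages was sought with stage and flower type as additive terms over the 4 libraries, which leaves 1 residual degree of freedom. In edgeR's quasi-likelihood F-test no transcript of the 27007 tested was called by flower type (0% higher, 0% lower). The log2 change of gall over seed flowers was 2.03 (SE 0.36) for Locus 1491, 2.97 (SE 0.45) for Locus 604, 4.04 (SE 0.93) for Locus 42519 and 5.05 (SE 0.65) for Locus 7415. The adjusted p in edgeR ran from 0.0833 (Locus 7415) to 0.145 (Locus 42519) among the 8 transcripts described as chalcone synthase. At an unadjusted p under 0.05, 8 members and 3339 transcripts passed, and DESeq2's Wald test with the same design called 8 members higher, against 4.98% of the transcripts with an adjusted p. With no filter on low counts edgeR called 8 members higher, against 7.48% of the transcripts. By stage, edgeR called 0 members, with 0.159% of the transcripts called higher and 0.0444% lower in pollinated flowers. At an unadjusted p under 0.05, 0 members and 1475 transcripts passed by stage, and DESeq2 called 0 members and 478 transcripts. The stage term takes gall and seed flowers together, so opposite changes in them, as in Locus 42519, offset each other.

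Other enzymes of the pathway were followed in their transcripts of 200 bp or more, found by words in the descriptions. Of 69 such transcripts, 42 passed the RPKM minimum, and how many did so through the gall libraries alone was not counted. Kal's test called 37 of them higher and 1 lower in receptive gall than receptive seed flowers, against 23.6% and 17.6% of the 10434 transcripts. It called 23 higher and 0 lower in pollinated gall than pollinated seed flowers, against 9.38% and 6.69%. In pollinated against receptive gall flowers, 2 were called higher and 8 lower, against 8.38% and 6.66% of the transcripts. In pollinated against receptive seed flowers, 17 were called higher and 1 lower, against 18.3% and 9.77%. Upstream, cinnamate 4-hydroxylase, which hydroxylates cinnamate, had all 7 of its transcripts called higher in gall flowers at both stages. Its most read transcript, Locus 17153, had 441 RPKM in pollinated gall, 138 in pollinated seed, 369 in receptive gall flowers and 123 in receptive seed flowers. The ligase that makes p-coumaroyl-CoA, 4-coumarate:CoA ligase, had 8 of 16 called higher in receptive gall flowers and 2 in pollinated gall flowers. Phenylalanine ammonia-lyase, the entry to the pathway, had 1 transcript of this length, Locus 93. It had 16.4 RPKM in pollinated gall, 4.20 in pollinated seed, 34.8 in receptive gall flowers and 0.175 in receptive seed flowers, the last from 4 reads. Locus 93 thus passed the RPKM minimum through receptive gall flowers alone.

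Downstream, chalcone isomerase acts on the product of chalcone synthase, and 5 of its 9 transcripts passed the RPKM minimum. The isomerase had all 5 called higher in receptive gall flowers and 4 called higher in pollinated gall flowers. Locus 19337, its most read transcript, had 515 RPKM in pollinated gall, 175 in pollinated seed, 632 in receptive gall flowers and 63.3 in receptive seed flowers, so that its gall to seed ratio was 2.95 at the pollinated and 9.98 at the receptive stage. The corresponding ratios were 2.79 and 7.34 for Locus 12598 of flavonoid 3'-hydroxylase, which adds a hydroxyl to the B ring. They were 2.60 and 6.21 for Locus 27985 of anthocyanidin reductase, which makes the flavan-3-ol building blocks of condensed tannins. Dihydroflavonol reductase went the other way, with 7.95 and 3.87 for Locus 1263. The 1 pathway transcript called lower in receptive gall flowers was also of this enzyme. Upstream, the pollinated ratio was likewise the larger for 4-coumarate:CoA ligase (Locus 769), with 3.99 and 2.44. Cinnamate 4-hydroxylase (Locus 17153) had nearer values of 3.19 and 3.00. Locus 2057, described as both flavonol synthase and flavanone 3-hydroxylase, had 0.770 and 2.24. Leucoanthocyanidin reductase (Locus 1941) had 1.54 and 2.00, the flavonoid 3-O-glucosyltransferase Locus 18537 had 1.95 and 2.13, and the flavonoid 3',5'-hydroxylase Locus 21867 had 1.16 and 1.05. Leucoanthocyanidin dioxygenase (Locus 22331), which forms anthocyanidins, stayed at or below 3.38 RPKM in every library. No transcript of this length was described as a chalcone reductase, a stilbene synthase or another polyketide synthase of this type.

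The described transcripts outside the family whose profile over the 4 libraries was most like the summed RPKM of the members were sought among 7983 candidates, by the Euclidean distance between centred log2(RPKM + 1) profiles. The closest was Locus 40153 (distance 0.313), whose description, "5 start site is", names no gene. Locus 14913, a NADP-dependent glyceraldehyde-3-phosphate dehydrogenase, followed at 0.525, with 129 RPKM in pollinated gall, 43.6 in pollinated seed, 239 in receptive gall flowers and 24.4 in receptive seed flowers. A peroxidase (Locus 30675, 0.636), a strictosidine synthase (Locus 4685, 0.681) and a pectinesterase (Locus 1257, 0.699) came next. With 4 libraries, such likeness is a description only.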

How the data were processed

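The authors trimmed the paired reads with Trimmomatic 0.22 after a check in FastQC 0.10.0, built 1 assembly of the 4 libraries in Oases, took from every locus its longest sequence and aligned the reads to these in CLC Genomics Workbench. For each transcript and library the authors deposited a read count, a count of reads with a single match and an RPKM value, which were used unchanged. How reads with several matches were divided is not given in the sources used here. Transcript lengths, descriptions, e-values, GO terms and the mean similarity in percent were those the authors deposited from their protein search. Columns that repeat other columns were not used, and transcript sequences were not analysed here.

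Ratios are of reads per 1000000 mapped reads, with exact conditional binomial 95% intervals. These cover counting error only, since reads are not independent molecules, and counting both mates of a pair would make them too narrow. For 4 comparisons Kal's Z-test (2-sided) was run on RPKM divided by its library sum, with Benjamini-Hochberg adjustment over the transcripts that had a value in either library. It compares 2 libraries, not 2 conditions. The additive model used edgeR 4.0.16 (TMM scaling, filterByExpr) with DESeq2 1.42.0 as the alternative, and other steps used Python 3.11.15 with scipy 1.17.1. The methods were tested on simulated counts with no spread or a small assumed spread between samples. The real spread is not known here, so those tests do not show how the calls behave under it.

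Named singly were all members, the 3 fragments with the highest mean RPKM, the most read long transcript of each other pathway enzyme and the 5 transcripts of most similar profile; Locus 26800 and Locus 31616 were added for their length. The members and lists were chosen with earlier results of these data known. Alternatives were read counts or uniquely mapped reads in the test, other RPKM minimums, a ratio of at least 2 in addition, edgeR's exact test with an assumed coefficient of variation of 0.4, TMM or median-ratio scaling, a pseudocount of 1 RPKM, a length of at least 300 bp and the sum without its most read member. Those on single members and on the change of the gall to seed ratio between stages were added after the data were seen.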

Additional observations from a re-analysis of the deposited data

Results flagged for a closer look

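Locus 42519, Locus 24923, Locus 7415 and Locus 604 had less than their receptive value in pollinated gall flowers and more than their receptive value in pollinated seed flowers, with counting intervals clear of 1 in both. The stage ratio in gall flowers divided by that in seed flowers was 0.0698 for Locus 42519, 0.127 for Locus 24923, 0.203 for Locus 7415 and 0.413 for Locus 604. For the sum of the 10 transcripts it was 0.658, with 0.695 for the gall and 1.06 for the seed libraries. The difference between flower types was not tested beyond counting error, because each flower type has 1 library per stage. In receptive seed flowers, the shallowest library, these 4 transcripts rested on 229, 144, 39 and 1710 reads.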

How the results depend on the processing

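The calls higher in gall flowers at both stages stayed within a factor of 1.5 under all 7 alternatives, the lowest being 7 receptive and 5 pollinated (edgeR's exact test). In pollinated against receptive gall flowers, 8 members were called lower by the Z-test on read counts and 0 by edgeR's exact test, against 3, where the Z-test on read counts called 39.9% of all transcripts lower and edgeR's exact test 0.642%. In the seed comparison edgeR's exact test called 0 higher, against 4, and the Z-test on read counts called 1 lower. For gall over seed flowers in the additive model, 8 members were called with no filter on low counts and 8 by DESeq2. The summed ratio of receptive gall over receptive seed flowers was 7.60 with TMM, 7.55 with median-ratio scaling, 6.33 from uniquely mapped reads, 17.2 without Locus 1491, 5.34 at 300 bp or more and 13.4 as a sum of RPKM + 1. For pollinated gall over pollinated seed flowers it was 4.86, 4.67, 4.56 without Locus 1491 and 4.18 as a sum of RPKM + 1. For pollinated over receptive gall flowers it was 0.684, 0.671, 0.699, 0.553, 0.772 and 0.523 in the order of the first list. For pollinated over receptive seed flowers it was 1.09 with median-ratio scaling, 2.09 without Locus 1491 and 1.67 as a sum of RPKM + 1, and it fell below 1, to 0.954, at 300 bp or more, where Locus 42519 is left out. The pollinated gall to seed ratio over the receptive one was 0.640 with TMM, 0.618 with median-ratio scaling and 0.264 without Locus 1491. The long transcripts' share of chalcone synthase reads in pollinated gall, pollinated seed, receptive gall and receptive seed flowers was 69.5%, 70.3%, 76.4% and 62.1% from uniquely mapped reads, 51.9%, 51.4%, 53.3% and 47.0% at 300 bp or more, and 17.8%, 18.2%, 29.0% and 8.53% of summed RPKM. Of 120 alternatives for single members, 23 moved beyond the counting interval and 0 changed direction. No paired analysis was possible because each flower type has 1 library per stage. The additive model, which holds stage as a term, is the closest fit to a paired analysis. Depth limits most the ratios that rest on few receptive seed reads, such as the 12 of Locus 15937, 14 of Locus 31949 and 29 of Locus 19117.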

Other observations

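The members fell into sets of like profile over the 4 libraries, by the distance between centred log2(RPKM + 1) profiles. Locus 16051, Locus 19117 and Locus 31949, whose lengths were 1533, 542 and 310 bp, lay within 0.337 of each other, and Locus 604 lay 0.264 from Locus 19117. Locus 42519 and Locus 24923 lay 0.694 apart, whereas Locus 42519 lay 2.98 from Locus 1491. The largest distance, 6.06, was that between the family protein Locus 22790 and Locus 7415. The other family protein, Locus 15937, lay 2.12 from Locus 1491, nearer to it than Locus 24923 (2.30), Locus 42519 or Locus 7415 (3.23). Whether like profiles come from pieces of 1 gene was not tested, since sequences were not analysed here.

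One further transcript of 200 bp or more carries the term naringenin-chalcone synthase activity without the words chalcone synthase. Locus 44298 (208 bp) is described as a pentatricopeptide repeat-containing protein and had 0.408 RPKM in pollinated gall, 0.377 in receptive gall flowers and 2.49 in receptive seed flowers, and no read in pollinated seed flowers.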
